A study of Mus musculus with 6 samples.

Results

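The Krüppel-like factors (KLFs) are transcription factors that bind CACCC and GC-rich DNA through zinc fingers at the C-terminus. The 10 *Klf* genes described here (*Klf2*, *Klf3*, *Klf4*, *Klf5*, *Klf6*, *Klf7*, *Klf9*, *Klf10*, *Klf13*, and *Klf15*) were taken by gene symbol, with earlier results of these data known, from the 23997 genes measured by bulk RNA-Seq in the mouse ductus arteriosus (DA), the fetal artery between the aorta and the pulmonary artery. All 10 were found and passed the expression filter of a mean FPKM (mapped fragments scaled to transcript length and to the mapped fragments of the library) of at least 1, as did 12955 genes in all, but *Klf5* averaged under 1 FPKM in WT libraries and passed only through the KO libraries, where it was higher. The 6 libraries came from C57BL/6 embryos at E17.5, of which 3 were WT littermates (titled WT0, WT1, and WT2) and 3 carried *Prdm6* alleles flanked by loxP sites with the *SM22-Cre* transgene (genotype *Prdm6f/f; SM22-Cre*, titled KO0, KO1, and KO2). *SM22-Cre* expresses Cre-recombinase in smooth muscle cells (SMCs), and whether other cells of the dissected DA keep *Prdm6* was not measured. No treatment was given, and the labels do not say whether a library holds 1 embryo or several, so the p-values measure only the spread between these libraries.

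In the vessel wall, KLF4 is known as a factor that lowers contractile genes when SMCs dedifferentiate, and KLF5 as one that is raised in embryonic and injured SMCs. KLF2 is known as the endothelial factor that rises with laminar shear stress through the kinase ERK5 and MEF2 factors, a response it shares with KLF4. KLF9 and KLF15 are known targets of glucocorticoid hormones, KLF10 is an early target of TGF-β, and KLF3 is a repressor that recruits the CtBP corepressors.

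The upper quartile of FPKM over all genes, those at 0 included, was 10.4 to 10.8 in the libraries. The summed FPKM ran from 412183 in WT1 to 818503 in KO2. The steps between low FPKM values put the depth of the libraries at 0.93 to 1.19 times that of WT1. The upper-quartile scaling used below takes the quartile over the genes above 0 in each library. Between 8338 and 11886 genes were listed at 0 in a library, including 34 to 61 of the 3506 genes with a mean of at least 20 FPKM, so an exact 0 may be a failed estimate. *Prdm6*, the targeted gene, was at 41.7, 48.4, and 19.8 FPKM in WT0, WT1, and WT2 and at 48.6, 27.1, and 15.4 FPKM in KO0, KO1, and KO2, so the value of the whole gene did not separate the groups and "KO" is used as the label of the libraries. KO0 held both *Xist* (81.0 FPKM), transcribed from the inactive X chromosome, and *Ddx3y* (26.4 FPKM) of the Y chromosome, whereas each of the other 5 libraries was high in only 1 of them. The summed FPKM of 10 heart muscle markers was 1266 in WT1 and 1369 in KO2 against 59.5 to 593 in the other 4 libraries. The smooth muscle markers *Acta2*, *Tagln*, *Myh11*, *Cnn1*, *Smtn*, and *Lmod1* were detected in every library.

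The 2 members most studied in vessels, *Klf2* in the endothelium and *Klf4* in SMCs, are shown by the sequence before their transcription starts, because their levels and those of their upstream MEF2 factors are reported below. The sequences are the reference of RefSeq on GRCm38.p6, limited to bases that lie before the gene start of both RefSeq and GENCODE, and read 5′ to 3′ on the gene's strand. Capitals mark the letters CACCC or GGGTG and the GC box, GGGCGG or CCGCCC, on which matches may overlap. *Klf2* is shown over 221 bases (chr8:72318812-72319032, plus strand) and *Klf4* over 250 bases (chr4:55532476-55532725, minus strand).
Klf2: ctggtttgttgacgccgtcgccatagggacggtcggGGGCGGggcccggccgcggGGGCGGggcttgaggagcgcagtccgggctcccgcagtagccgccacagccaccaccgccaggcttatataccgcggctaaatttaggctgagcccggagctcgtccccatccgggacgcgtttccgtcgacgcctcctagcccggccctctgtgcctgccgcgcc
Klf4: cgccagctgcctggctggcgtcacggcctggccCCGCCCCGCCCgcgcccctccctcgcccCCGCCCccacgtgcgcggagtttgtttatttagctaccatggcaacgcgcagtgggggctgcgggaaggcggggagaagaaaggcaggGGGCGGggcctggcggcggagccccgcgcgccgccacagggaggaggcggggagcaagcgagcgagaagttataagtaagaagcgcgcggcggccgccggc

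The *Klf2* stretch held 2 GC boxes and the *Klf4* stretch held 4, of which 2 overlap, and the letters CACCC or GGGTG were in neither. Over the full 250 bases before the RefSeq start, *Klf2* had 1 CACCC match, which is not within the stretch shown. The RefSeq table held a promoter for 8 of the 10 members. In the 250 bases before the start, 7 of these 8 had a GC box, against 32.7% of the 32851 promoter windows searched on both strands. CACCC was in 6 of 8, against 52.0% of windows. The windows searched are those of the full 250 bases, with 1 chromosome left out that holds none of the 10 members. The consensus for the MEF2 site was found in 1 member, *Klf2*, from 118 to 109 bases before the RefSeq start, and in 2.92% of these windows. It is shown in capitals with 10 bases on each side (chr8:72318934-72318963).
Klf2 MEF2 site: tataccgcggCTAAATTTAGgctgagcccg

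The CArG box, the site of serum response factor (SRF), was found in 0 of the 8 members and in 1.47% of windows. A match is a description of letters only, and binding was not measured.

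The *Klf* genes were expressed at overlapping levels in both groups. The sum of their FPKM was 157 to 207 in the WT libraries and 159 to 197 in the KO libraries. In whole vessels, fewer cells of a type and less RNA per cell cannot be told apart. By mean FPKM over the 6 libraries the order was *Klf6* (37.4 FPKM ± 5.73, SD), *Klf3* (35.9 ± 5.36), *Klf4* (24.8 ± 5.12), *Klf2* (19.3 ± 3.27), *Klf13* (16.7 ± 1.97), *Klf10* (15.7 ± 3.39), *Klf7* (13.2 ± 1.41), *Klf9* (6.86 ± 3.09), *Klf15* (4.87 ± 2.30), and *Klf5*, which was listed at 0 in 2 libraries. *Klf3* lay above *Klf4*, and *Klf7* above *Klf9*, in 6 of 6 libraries. *Klf6* and *Klf3*, *Klf13* and *Klf10*, *Klf10* and *Klf7*, *Klf9* and *Klf15*, and *Klf15* and *Klf5* were neighbours whose mean difference on the log2 scale was smaller than its SD over the libraries.

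**Figure D1:**
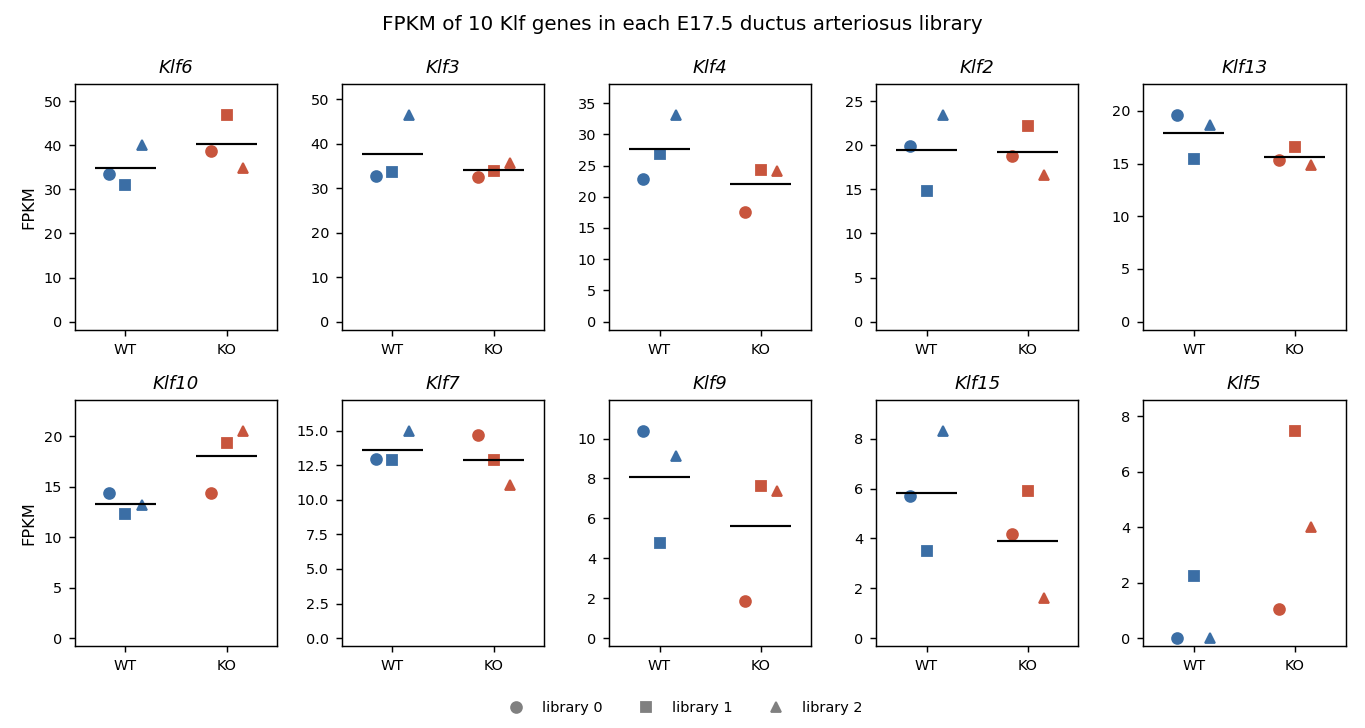
FPKM (y axis, linear) of each of the 10 *Klf* genes in the 3 WT (blue) and 3 KO (red) libraries, with 1 point per library and symbols for libraries 0, 1, and 2. Bars are group means and are left out for *Klf5*, which was listed at 0 in WT0 and WT2; in each panel the values of the groups overlap.

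Between the groups, none of the 10 members was called in limma on log2(FPKM + 0.1), with an adjusted p from 0.609 to 0.999 after Benjamini-Hochberg adjustment over all 12955 genes. In the whole table this test called 1 gene, *Rn45s*, or 0.00772% of those tested, and before adjustment 8.28% of genes had a p under 0.05 (3.31% higher and 4.97% lower in KO), against 0 of the 10 members. *Rn45s* had a mean of 0 FPKM in WT and 3795 FPKM in KO libraries, so it passed the filter only through the KO libraries. Whether this difference came from the handling of the libraries was not tested. The values of the groups overlapped for 10 of 10 members, beside 16.1% of all tested genes without overlap, and 10 genes are too few to tell these apart. The log2 fold change (KO minus WT) was below 0 for 7 members and above 0 for 3, with a median of -0.11, beside a median of 0.072 and 44.4% of genes below 0 over all tested genes. For *Klf6*, *Klf3*, *Klf4*, *Klf2*, *Klf13*, *Klf10*, and *Klf7*, the standard error was 0.20 to 0.25. In this fit the 95% interval of these members stayed within a log2 change of 1 in either direction, so that a doubling or a fall to 0.5 times lay outside it. The upper bound of *Klf10* was 0.98, close to that limit, and the estimates moved with the settings. With upper-quartile scaling *Klf10* was at 0.57 (standard error 0.27), and a doubling then lay inside its interval. Without WT0 *Klf4* was at -0.45 (standard error 0.26), and a fall to 0.5 times then lay inside its interval. For *Klf9*, *Klf15*, and *Klf5* the standard error was 0.61 to 1.57. A fall to 0.5 times lay inside the interval of *Klf9* and *Klf15*, and a doubling inside that of *Klf5*. With 3 libraries against 3, the smallest p of a two-sided exact permutation test is 0.1, and the members gave from 0.2 to 1. Without KO0, the library with transcripts of both kinds, 0 members were called and the log2 fold change lay on the same side of 0 for the members other than *Klf2* (0.0091).

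**Figure D2:**
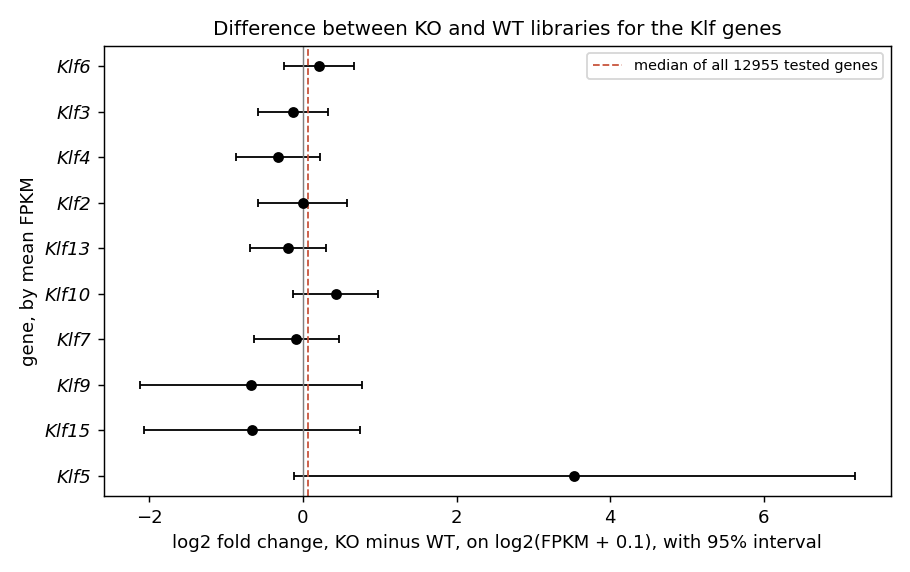
Log2 fold change of each *Klf* gene (x axis, KO minus WT on log2(FPKM + 0.1)) with its 95% interval from limma, genes in order of mean FPKM. The interval of each gene includes 0, and those of *Klf9*, *Klf15*, and *Klf5* are the widest, while the dashed line marks the median of all tested genes at 0.072.

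*Klf4*, the factor known to lower contractile genes, was at 22.8, 26.9, and 33.1 FPKM in WT0, WT1, and WT2 and at 17.54, 24.3, and 24.2 FPKM in KO0, KO1, and KO2. The 2 highest values were in WT libraries and the lowest was KO0, with overlap between WT0 and the other KO libraries. The log2 fold change was -0.33 (95% interval -0.87 to 0.22, limma adjusted p = 0.70), a KO level of 0.80 times the WT level with an interval from 0.55 to 1.16 times. In this fit, a rise of *Klf4* above 1.16 times was outside the interval. Left-out libraries moved the log2 fold change of *Klf4*, which was -0.17 without KO0 (standard error 0.24), -0.19 without WT2, and -0.45 without WT0. It was -0.18 with upper-quartile scaling (standard error 0.25). Without KO0 and with this scaling the upper bound lay higher, so the limit of 1.16 times holds for the main fit only. In GRCm38, which is mm10, the *Klf4* gene occupies positions 55527143 to 55532466 of chromosome 4, and GENCODE has no other gene overlapping it.

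*Klf5*, the embryonic SMC factor, was listed at 0, 2.26, and 0 FPKM in WT0, WT1, and WT2 and was at 1.07, 7.46, and 4.02 FPKM in KO0, KO1, and KO2. KO1 and KO2 lay above every WT library, and KO0 lay below WT1. The log2 fold change was 3.53 (95% interval -0.12 to 7.18, limma unadjusted p = 0.0563, adjusted p = 0.609), and since *Klf5* passed the filter only through its KO values, these are given as a description and support no difference. Set by the 2 values of 0, the log2 fold change was 5.71 with a pseudocount of 0.01 and 1.58 with a pseudocount of 1. Over the alternatives the unadjusted p ran from 0.0107 (without WT1, which leaves 2 WT values of 0) to 0.22 (without KO1), and was 0.0394 with the replicate block and 0.119 with no filter. WT0 and WT2 were the only libraries to list a gene at 0 for 108 of the 12955 tested genes, the highest such number of any pair of libraries (0 to 66 for the other pairs), and these 2 libraries also listed the most tested genes at 0 (538 and 1457, against 131 to 404). The part of these listings in the *Klf5* difference was not tested. *Klf5* spans chromosome 14 from 99298691 to 99315036.

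Since *Klf4* and *Klf5* are also epithelial genes, 12 epithelial and mesothelial markers were set beside them. Of these, 7 were tested, 5 with a log2 fold change above 0 and 2 below 0, and 0 were called. *Krt14*, a keratin of basal epithelium and 1 of the 12, had values like those of *Klf5* (0, 2.62, and 0 FPKM in WT0, WT1, and WT2 and 2.18, 5.50, and 3.02 FPKM in KO0, KO1, and KO2). Like *Klf5*, it is 1 of the 108 tested genes listed at 0 in WT0 and WT2 only. It also averaged under 1 FPKM in WT libraries and passed the filter only through the KO libraries. The likeness and the counts of this list are therefore a description and support no difference. The summed FPKM of the list was 66.7 to 235 in WT and 84.3 to 189 in KO libraries, most of it from *Krt18*, *Krt19*, *Msln*, and *Upk3b*, whereas the defining epithelial genes *Epcam* and *Cdh1* were under 1 FPKM in every library. The part of such cells in the *Klf5* values was not tested.

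*Klf2*, the shear-responsive factor, was at 19.9, 14.8, and 23.5 FPKM in WT0, WT1, and WT2 and at 18.8, 22.2, and 16.6 FPKM in KO0, KO1, and KO2. The highest and the lowest of the 6 values were both in WT libraries. The log2 fold change was -0.0014 (95% interval -0.58 to 0.58, limma adjusted p = 0.999), or from 0.67 to 1.49 times. *Klf2* spans chromosome 8 from 72319033 to 72321656.

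The pathway upstream of *Klf2* was expressed in every library. Of the list of 18 upstream kinases, MEF2 factors, cofactors, and ubiquitin ligases of KLFs, 0 were called, 8 had a log2 fold change above 0 and 10 below 0, and 4 had no overlap between groups, a share of 18 genes near the 16.1% of all genes. *Map3k3*, the kinase at its head, was at 48.8, 32.1, and 32.8 FPKM in WT and 28.7, 28.5, and 27.6 FPKM in KO libraries (limma adjusted p = 0.649), without overlap. *Mef2c* was at 17.8, 16.8, and 10.2 FPKM in WT and 28.3, 18.3, and 18.3 FPKM in KO libraries (adjusted p = 0.656), also without overlap but in the other direction. *Mef2d* (log2 fold change -0.42) and *Ctbp1*, the corepressor bound by KLF3 (log2 fold change -0.38, adjusted p = 0.611), were lower in each KO library than in each WT library, and neither passed the test. *Mapk7*, which encodes ERK5, was at 10.98 to 13.7 FPKM in WT and 9.69 to 14.1 FPKM in KO libraries.

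Downstream of KLF2 and KLF4, 13 of 15 genes known to respond to flow were tested, and 0 were called. Before adjustment 3 of the 13 were higher and 1 was lower with a p under 0.05 (*Thbd*, *S1pr1*, *Nos3*, and *Cyp1b1*), against 3.31% higher and 4.97% lower over all genes. *Thbd*, which encodes thrombomodulin, was at 29.6, 26.0, and 22.4 FPKM in WT and 75.9, 52.9, and 31.2 FPKM in KO libraries (log2 fold change 0.95, limma unadjusted p = 0.0191, adjusted p = 0.545). *S1pr1*, a sphingosine-1-phosphate receptor, was at 17.3, 18.7, and 15.8 FPKM in WT and 27.6, 22.2, and 27.6 FPKM in KO libraries (log2 fold change 0.57, adjusted p = 0.561). For both genes the groups did not overlap, with KO above WT, while *Cyp1b1* was lower in each KO library (log2 fold change -0.80, adjusted p = 0.468). *Nos3*, the endothelial nitric oxide synthase, had overlapping values with a log2 fold change of 1.01 (adjusted p = 0.591). Of 13 endothelial markers, 9 had a log2 fold change above 0 and 4 below 0, 4 had no overlap (all higher in KO) against 8.21% of all genes in this direction, and 0 were called. Their summed FPKM was 368 to 545 in WT and 473 to 692 in KO libraries, and their part in the flow-response values was not tested.

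The smooth muscle contractile list, of a class of genes that KLF4 is known to lower, had log2 fold changes below 0 for 19 of the 19 tested, with a median of -0.85 (0.072 over all genes), and 10 had no overlap, each lower in KO, against 7.84% of all genes. Whether each gene of the list responds to KLF4 was not tested. In limma 0 of the 19 were called, and 9 had an unadjusted p under 0.05, each lower in KO, against 4.97% of all genes. The smallest adjusted p was 0.17, for *Tpm2*, which encodes β-tropomyosin and was at 289.9, 176, and 279.5 FPKM in WT and 57.6, 67.2, and 42.9 FPKM in KO libraries (log2 fold change -2.14). *Srf* was at 21.9, 18.6, and 23.9 FPKM in WT and 9.57, 13.5, and 10.3 FPKM in KO libraries (log2 fold change -0.95, adjusted p = 0.463). *Myocd*, the SMC coactivator of SRF, was at 37.5, 30.1, and 16.8 FPKM in WT and 23.1, 15.0, and 12.4 FPKM in KO libraries (log2 fold change -0.71, adjusted p = 0.633), with overlap. Whether the contractile list and *Klf4* differed in their response was not tested.

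**Figure D3:**
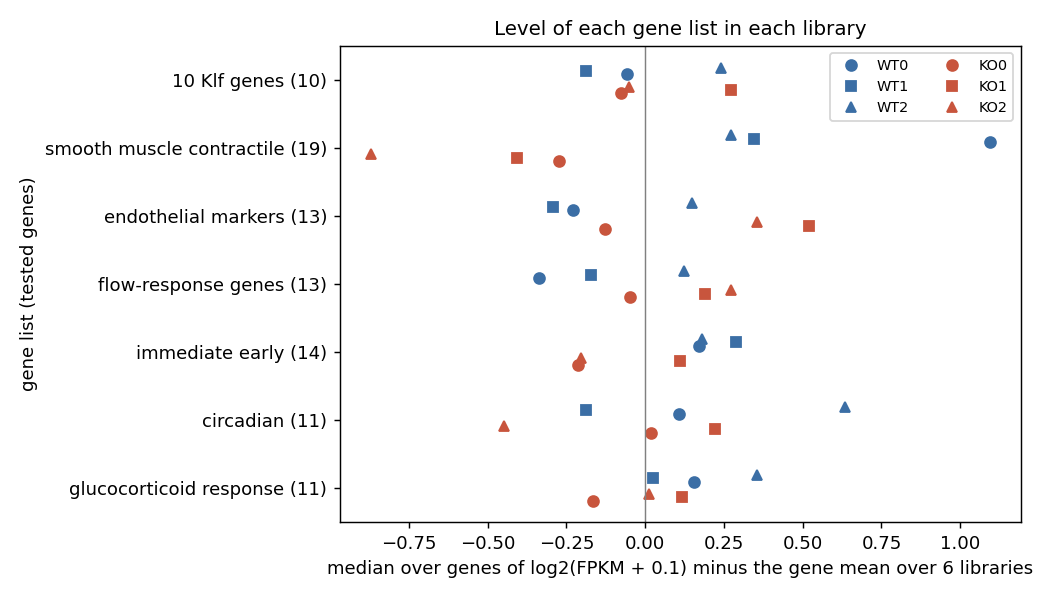
Level of 7 gene lists in each library (x axis, median over the tested genes of log2(FPKM + 0.1) minus the gene's mean over the 6 libraries, number of tested genes in parentheses), with WT in blue and KO in red. WT and KO points are mixed for the 10 *Klf* genes, while for the smooth muscle contractile list the 3 KO libraries lie below the 3 WT libraries.

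*Klf6* and *Klf10* are both induced early by growth factors and TGF-β. *Klf10* was at 14.4, 12.3, and 13.2 FPKM in WT0, WT1, and WT2 and at 14.4, 19.3, and 20.5 FPKM in KO0, KO1, and KO2. KO1 and KO2 lay above the WT libraries, and KO0 (14.39 FPKM) lay just below WT0 (14.41 FPKM). The log2 fold change was 0.43 (95% interval -0.12 to 0.98, limma unadjusted p = 0.111, adjusted p = 0.651), and with a library left out it ran from 0.33 without KO2 (unadjusted p = 0.295) to 0.58 without KO0 (unadjusted p = 0.0518, adjusted p = 0.747). It was 0.27 without WT1 and KO2 (unadjusted p = 0.47). *Klf6* was at 33.4, 30.9, and 39.9 FPKM in WT and at 38.8, 46.9, and 34.8 FPKM in KO libraries, with a log2 fold change of 0.21 (95% interval -0.25 to 0.66, adjusted p = 0.748), which was 0.09 without KO1, 0.13 without WT1, 0.31 without WT2, and 0.35 with upper-quartile scaling. Of 12 TGF-β early genes, 4 had a log2 fold change above 0 and 8 below 0, with *Ctgf* (log2 fold change -1.42, adjusted p = 0.54) and *Id2* (log2 fold change -0.82, adjusted p = 0.54) lower in each KO library than in each WT library, and 0 were called. Whether each gene of this list rises or falls with TGF-β in the DA was not tested.

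*Klf9* and *Klf15* had the lower means of the members listed above 0 throughout. *Klf9* was at 10.4, 4.76, and 9.13 FPKM in WT0, WT1, and WT2 and at 1.87, 7.64, and 7.39 FPKM in KO0, KO1, and KO2. KO0 alone stood low, and the other KO libraries lay between the WT values. The log2 fold change of -0.68 (95% interval -2.13 to 0.76, limma adjusted p = 0.743) was -0.03 without KO0, -0.47 without WT0, -1.02 without WT1 or KO1, -0.99 without KO2, and -1.33 without WT1 and KO2, the 2 libraries high in heart muscle transcripts. *Klf15* was at 5.70, 3.50, and 8.30 FPKM in WT and at 4.17, 5.91, and 1.61 FPKM in KO libraries. KO2 alone stood low, and the log2 fold change was -0.66 (95% interval -2.07 to 0.74, adjusted p = 0.743). It was -0.14 without KO2, -0.37 without WT2, -0.98 without WT1, -1.05 without KO1, and -1.05 with quantile normalization.

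The genes known to share the hormonal and daily control of *Klf9* and *Klf15* were also tested, and 0 were called. Among 11 tested glucocorticoid-response genes, 5 had a log2 fold change above 0 and 6 below 0. *Fkbp5*, which encodes a glucocorticoid receptor cochaperone, was at 16.4, 19.7, and 17.7 FPKM in WT and 11.1, 12.5, and 12.6 FPKM in KO libraries (log2 fold change -0.57, limma unadjusted p = 0.033, adjusted p = 0.588), without overlap. Among 11 tested circadian genes, 4 lay above and 7 below 0. *Per1*, which is in both lists, was at 18.4, 15.9, and 25.7 FPKM in WT and 14.7, 15.9, and 11.3 FPKM in KO libraries (log2 fold change -0.50, adjusted p = 0.649).

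*Klf3*, *Klf7*, and *Klf13* had the most even values. *Klf3*, the CtBP-dependent repressor, was at 32.7, 33.7, and 46.6 FPKM in WT and at 32.6, 33.8, and 35.8 FPKM in KO libraries, where WT2 alone stood high (log2 fold change -0.13, 95% interval -0.58 to 0.33, limma adjusted p = 0.841, and 0.035 without WT2). *Klf7*, a factor known from neurons, was at 13.0, 12.9, and 15.0 FPKM in WT and at 14.7, 12.8, and 11.1 FPKM in KO libraries (log2 fold change -0.086, 95% interval -0.64 to 0.47, adjusted p = 0.917). *Klf13*, known from erythroid cells, lymphocytes, and heart, was at 19.6, 15.4, and 18.7 FPKM in WT and at 15.3, 16.6, and 14.8 FPKM in KO libraries (log2 fold change -0.19, 95% interval -0.69 to 0.30, adjusted p = 0.78, and -0.12 without WT0, -0.30 without WT1, and -0.049 with upper-quartile scaling). For *Klf13* the 2 highest values were in WT libraries and the 2 lowest in KO libraries. GENCODE places genes on the opposite strand within *Klf3*, *Klf7*, and *Klf13*, and since the labels do not say that the libraries keep strand, reads of these may count toward either gene.

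Markers of other cells, including neurons and erythroid cells in which *Klf7* and *Klf13* are known, varied more between the libraries. For Schwann cells and neurons the sums were higher in each KO library than in each WT library. The summed FPKM of 10 Schwann cell markers was 22.3 to 27.1 in WT and 32.5 to 169 in KO libraries, with 9 of 10 genes above 0, 4 without overlap, each higher in KO (8.21% of all genes), and 0 called. In limma 6 of the 10 had an unadjusted p under 0.05, each higher in KO, against 3.31% of all genes. The sum of 10 neuron markers was 10.1 to 27.1 in WT and 45.7 to 64.4 in KO libraries. Of the 7 tested, 7 were above 0, 3 had no overlap, each higher in KO (8.21% of all genes), and 0 were called. Low genes of this list may have passed the filter, a mean over all 6 libraries, through their KO values. The counts are therefore a description and support no difference. Of these 7, 3 were higher with a limma unadjusted p under 0.05, against 3.31% of all genes. The sum of the 8 erythroid markers in the table was 3863 to 7583 in WT and 4284 to 24359 in KO libraries, with 6 of 6 tested genes above 0, 2 higher at that p, and 0 called. The 9 leukocyte markers in the table summed to 39.1 to 235 FPKM in WT and 41.0 to 276 FPKM in KO libraries, and 10 fibroblast markers to 4265 to 7594 FPKM in WT and 3414 to 6919 FPKM in KO libraries. The part of these cells in the levels of the members was not tested.

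The 7 higher members varied less between libraries than most genes, and the 3 lower ones more. Over the 6 libraries the SD of log2(FPKM + 0.1) was 0.15 for *Klf7*, 0.17 for *Klf13*, 0.20 for *Klf3*, 0.21 for *Klf6*, 0.25 for *Klf2*, and 0.30 for *Klf4* and *Klf10*, beside a median of 0.52 over all tested genes. Spread falls with level in these data, and among the 5124 genes with a mean FPKM from 10 to 50 the median SD was 0.37. All 7 members in this range lay below it. The SD was 0.89 for *Klf9*, 0.80 for *Klf15*, and 2.70 for *Klf5*, which 72.2%, 68.6%, and 96.7% of tested genes did not reach. Among the 6627 genes with a mean FPKM from 1 to 10 the median SD was 0.82, with *Klf15* below it and *Klf9* and *Klf5* above it.

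**Figure D4:**
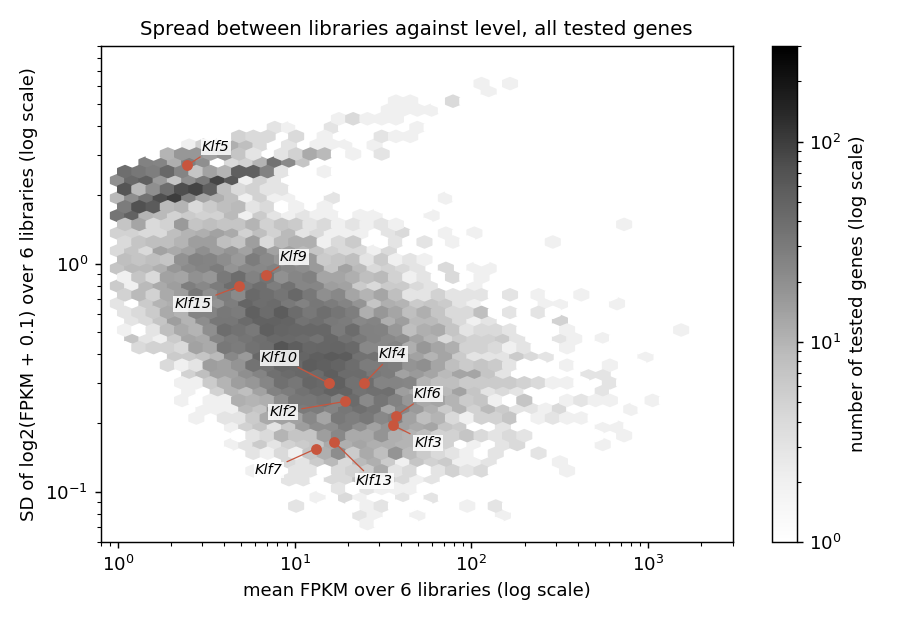
SD of log2(FPKM + 0.1) over the 6 libraries (y axis, log scale) against mean FPKM (x axis, log scale) for all 12955 tested genes, with shading for the number of genes and red points for the 10 *Klf* genes. The 7 members between 10 and 50 FPKM lie below the median SD of 0.37 for that range, and *Klf5* lies in the upper band, where genes are listed at 0 in some libraries.

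The remaining KLF genes and the related Sp factors, which bind the same GC boxes, were measured by 16 genes, of which 9 passed the filter and 0 were called. *Sp1* (24.4 to 29.1 FPKM over the 6 libraries) and *Sp3* (29.5 to 44.6 FPKM) were in the range of the higher members. *Klf16* was at 4.56, 4.79, and 4.30 FPKM in WT and 2.93, 1.59, and 3.04 FPKM in KO libraries (log2 fold change -0.88, limma unadjusted p = 0.116, adjusted p = 0.656). *Sp2* was at 4.396, 4.70, and 6.86 FPKM in WT and 2.52, 2.96, and 2.93 FPKM in KO libraries (log2 fold change -0.88, unadjusted p = 0.0838, adjusted p = 0.628). For these 2 genes each KO library lay below each WT library, which 7.84% of all genes did. *Klf1*, the erythroid member, was at 0, 2.23, and 0 FPKM in WT and 0.83, 1.39, and 0.11 FPKM in KO libraries and was not tested, and *Sp8* and *Sp9* were listed at 0 in all 6 libraries.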

How the data were processed

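Per the labels, total RNA of the DA at E17.5 was sequenced in 6 libraries, without treatment. Per the study's methods and processing notes, the authors removed low-quality and short reads and aligned the rest with TopHat2 to mm10, and the deposited table holds 1 FPKM value per gene and library, estimated with Cufflinks. Tool versions, the annotation, strand, and any scaling between libraries are not given in the sources used here. Because FPKM is not a count, total depth is unknown, and no detection floor was computed. Groups and numbers were taken from the sample titles.

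Values were put on the log2 scale as log2(FPKM + 0.1) from the deposited table, and limma 3.58.1 in R 4.3.3 was run on the genes whose mean FPKM was 1 or more. The eBayes step used a trend of variance on level, tests were two-sided, and p-values were adjusted by Benjamini-Hochberg over all tested genes, with a threshold of 0.05. The study's own Cuffdiff comparison starts from aligned reads and was not rerun. Fold changes on this scale understate those of low genes. Exact permutation tests over the 6 libraries were added for the members. On values simulated from the 12955 tested genes, limma called 0 of 200 genes changed by a log2 of 1, 67 of 200 changed by 2, and 143 of 200 changed by 4, along with 0, 3, and 12 unchanged genes. Gene positions came from GENCODE vM21 and promoters from RefSeq.

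The members, the gene lists, and the tests were chosen with earlier results of these data known. The genes named are the 10 members, up to 4 genes of each list (those past the threshold, then those with the smallest unadjusted p), the 3 genes most like *Klf2*, *Klf4*, and *Klf5*, and markers for their level, except that 1 gene like *Klf2* is not reported here. *Mapk7*, *Mef2d*, *Srf*, *Myocd*, *Krt18*, *Upk3b*, *Sp1*, *Sp8*, *Sp9*, *Klf1*, and *Fos* were chosen for naming with their values known. The alternatives were 2 other pseudocounts, other limits on low values, 3 scalings, 2 other variance models, a replicate block, and each library left out. The fit without the 2 libraries highest in heart muscle transcripts was chosen after seeing the data.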

Additional observations from a re-analysis of the deposited data

How the results depend on the processing

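In the 178 values of the 10 *Klf* genes under 18 alternatives, 0 reached an adjusted p under 0.05, and the lowest adjusted p from limma was 0.438, for *Klf5*. *Klf4*, *Klf9*, *Klf13*, and *Klf15* kept a negative and *Klf5*, *Klf6*, and *Klf10* a positive log2 fold change in each alternative in which they were tested. A mean FPKM of at least 5 leaves out *Klf5* and *Klf15*. Near 0, *Klf2* (-0.0014) turned to 0.033 with quantile normalization and 0.14 with upper-quartile scaling, and leaving out a library gave -0.18 to 0.15. With upper-quartile scaling, which moved the median of all genes by 0.14, *Klf3* turned to 0.018 and *Klf7* to 0.058, and leaving out a library gave -0.22 to 0.035 and -0.18 to 0.015.

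The count of 1 called gene became 2 without the mean-variance trend, 2 without moderation, and 3 without the 2 libraries highest in heart muscle transcripts, and was 1 to 3 with a library left out (3 without WT1, KO0, or KO2). The replicate block, on the numbers 0, 1, and 2 that the libraries share, gave 1 called gene and 0 called members, and its unadjusted p for *Klf5* was 0.0394. Deviations of same-numbered libraries correlated at 0.12, -0.076, and -0.0088, so the numbers were not taken as pairs.

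Of 306 list medians, 27 moved by more than the spread between replicates. The median of the other KLF and Sp genes (-0.16) became -0.033 and -0.039 with a mean FPKM of at least 0.1 and 5, -0.018 with upper-quartile scaling, -0.33 without the 2 libraries, and -0.25 to 0.13 with a library left out. That of KLF regulators (-0.061) became 0.083 with upper-quartile scaling and -0.14 to -0.053 with a library left out. Immediate early genes (-0.21) became -0.055, -0.37, and -0.069 with those 2 filters and that scaling, and -0.40 to -0.11 with a library left out. Glucocorticoid-response genes (-0.25) became -0.45 with quantile normalization and -0.39 to 0.23 with a library left out. The neuron list (2.27) became 1.39 with a pseudocount of 1 and 1.73 to 3.56 with a library left out. With a library left out, Schwann cell genes (2.11) gave 1.75 to 3.03, flow-response genes (0.29) 0.064 to 0.40, and adipogenic genes (-0.42) -0.45 to -0.0095. The cause of these moves was not tested. The exact depth of the libraries is unknown, and with 3 libraries in each group a log2 change of 1 was not called in the simulation.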

Other observations

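Immediate early genes, a class to which *Klf2*, *Klf4*, *Klf6*, and *Klf10* also belong in many tissues, were measured by 17 genes, of which 14 were tested, with 6 log2 fold changes above 0, 8 below 0, and 0 called in limma. *Egr1* was at 13.6, 12.5, and 11.7 FPKM in WT0, WT1, and WT2 and at 6.15, 6.28, and 4.99 FPKM in KO0, KO1, and KO2 (log2 fold change -1.11, limma unadjusted p = 0.00463, adjusted p = 0.463). *Egr1* was lower in each KO library than in each WT library, while *Fos*, named after its values were seen, was at 1.53, 2.11, and 3.92 FPKM in WT and 8.03, 4.44, and 1.70 FPKM in KO libraries, with overlap. Adipogenic and lipid genes, a programme in which several KLFs act in fat, included 9 tested genes, with a median of -0.42 on the log2 fold change, 6 below 0, and 0 called. *Cebpb*, a factor of early adipogenesis, was at 10.9, 12.8, and 16.6 FPKM in WT and 7.28, 5.49, and 6.84 FPKM in KO libraries (log2 fold change -1.02, unadjusted p = 0.0101, adjusted p = 0.533), without overlap.

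As a description over 6 libraries with no test, the genes whose log2(FPKM + 0.1) followed *Klf4* most closely were *Armc1* (Pearson's r = 0.999), *Uchl5* (r = 0.993), and *Rnf40* (r = 0.993), out of 12954 genes searched. For *Klf2* they included *Rtp4* (r = 0.983) and *Lgals2* (r = 0.972), and for *Klf5* they were *Dnajc5* (r = 0.994), *Nme4* (r = 0.993), and *Creb3l4* (r = 0.993). In this search 226 genes had an r over 0.9 with *Klf4*, 68 with *Klf2*, and 232 with *Klf5*, so the genes named are the top of many. *Nme4* and *Creb3l4* were, like *Klf5*, listed at 0 in WT0 and WT2 and above 0 in the other 4 libraries. Among the 45 pairs of members the highest r was 0.79, for *Klf3* and *Klf4*, and the lowest was -0.83, for *Klf13* and *Klf5*. The points share the library, its group, and its depth.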
